A study of Mus musculus with 4 samples.

Results

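The glypicans and syndecans are the main families of heparan sulfate proteoglycans at the cell surface, and all 10 of their mouse genes were members here: 6 glypicans (Gpc1 to Gpc6) and 4 syndecans (Sdc1 to Sdc4), of 22180 genes measured. They were chosen by gene symbol, and each was read from a probe set that names that gene alone, the one with the highest mean over the arrays where there were 2. Day 7 retinal aggregates (2 arrays) were compared with day 4 retinal aggregates (2 arrays), both grown in matrigel-containing retinal differentiation medium from wild-type Rx-GFP embryonic stem cells. These are a line of the EB5 series of 129/Ola origin with GFP knocked in under the promoter of Rx (Rax), an eye field gene, so all 4 samples carry the reporter and come from 1 cell line. RNA was taken from whole aggregates, in which fewer cells of a type and less RNA per cell cannot be told apart. Whether the 2 replicates of a day came from separate cultures is not stated in the labels, and p-values cover only the variation between these arrays, possibly a technical one.

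Both families carry heparan sulfate, a sulfated sugar chain that holds growth factors of the Wnt, FGF, Hedgehog and BMP families near their receptors. Glypicans are tied to the outer membrane by a lipid anchor, with their chains close to the cell surface. Syndecans cross the membrane, carry their chains far out, and end in a short tail that binds scaffold proteins inside the cell. R-spondins 2 and 3, the first of which the title of the series names, can strengthen Wnt signalling through heparan sulfate proteoglycans in human cells, and in Xenopus R-spondin 3 binds syndecan 4. Rspo2 and Rspo3 were 15.2-fold and 30.2-fold higher at day 7 here.

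One gene of each family rose by day 7, the syndecan Sdc3 and the glypican Gpc6. limma called 2 of 10 members higher and 0 lower at an adjusted p under 0.05, where 6.15% of all genes were called higher and 4.33% lower. At an unadjusted p under 0.05, 5 members were higher and 1 was lower, where 12.6% of all genes were higher and 10.5% lower. The median log2 difference, day 7 minus day 4, was 0.43 over the members and -0.0036 over all genes. The 2 days did not overlap for 7 members, and for 50.8% of all genes. Differences are on the log2 scale of the array, where 1 means a doubling of normalized signal, and errors are limma's moderated standard errors.

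**Figure D1:**
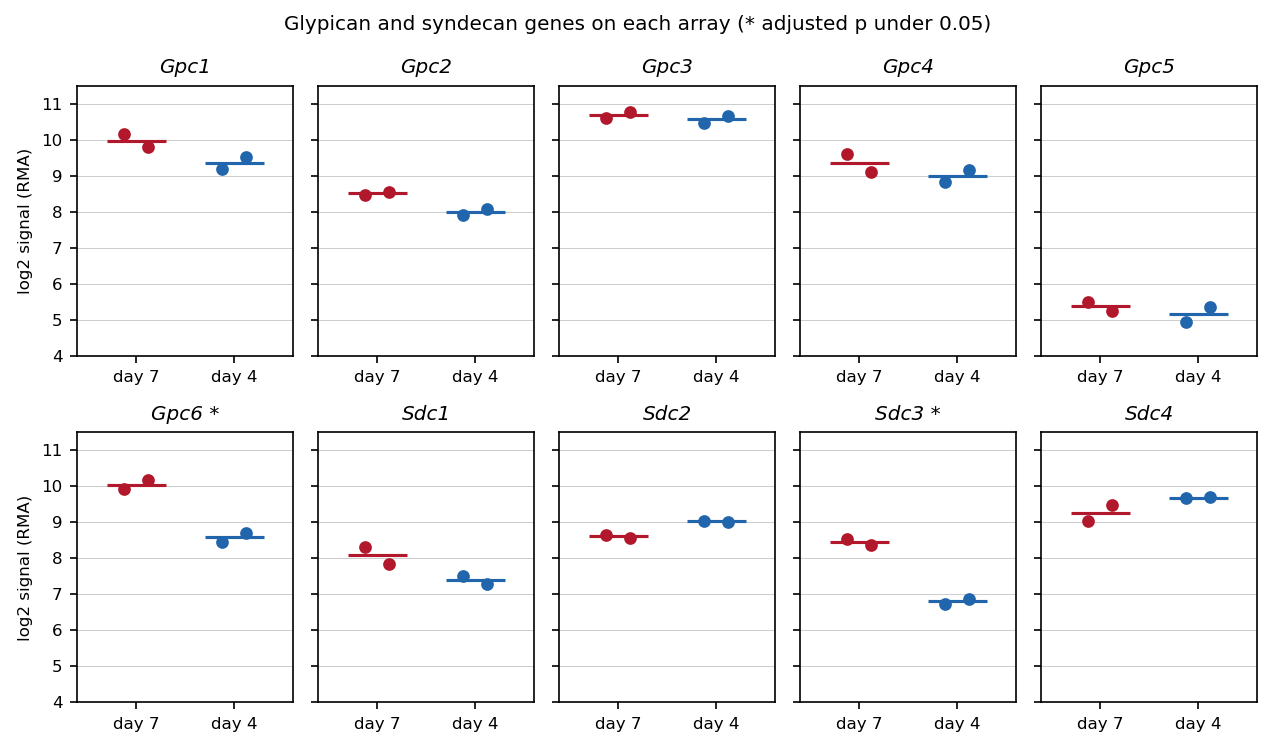
Log2 RMA signal (vertical axis) of each glypican and syndecan gene on the 4 arrays, with day 7 on the left and day 4 on the right of each panel; in each pair the left point is replicate 1 and the right point replicate 2, lines are means of the 2 arrays, and an asterisk marks an adjusted p under 0.05. Sdc3 and Gpc6 show the widest gaps between days, while the days overlap for Gpc3, Gpc4 and Gpc5.

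Sdc3 (probe set 17419277) codes for syndecan 3, or N-syndecan, the syndecan of the nervous system and a receptor of the growth factor pleiotrophin. Its log2 signal was 8.54 and 8.37 on the day 7 arrays, against 6.74 and 6.87 on the day 4 arrays. The days were 1.49 log2 apart at their closest, against 0.174 between the day 7 replicates and 0.134 between the day 4 replicates. Sdc3 was 3.14-fold higher at day 7 (log2 difference 1.65, SE 0.148, limma adjusted p = 0.000925, 2.95-fold to 3.33-fold with any 1 array left out). In a fit without a variance prior, which called 3 genes of all, its adjusted p was 0.201 and that of Gpc6 0.234.

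Promoter sequences on GRCm38.p6 were at hand for 7 of the 10 members (not for Gpc1, Gpc6 and Sdc2). They run from 250 bases before to 50 after the start used by the promoter set. For Gpc2 and Gpc5 that start differs from the RefSeq start of the gene. Sdc3 is shown as the member that rose most, and Sdc4 as the syndecan with the most negative difference; capitals mark GC boxes (GGGCGG, or CCGCCC on the other strand), the binding motif of Sp-family factors.
Sdc3 (chr4:130792287-130792586, plus strand): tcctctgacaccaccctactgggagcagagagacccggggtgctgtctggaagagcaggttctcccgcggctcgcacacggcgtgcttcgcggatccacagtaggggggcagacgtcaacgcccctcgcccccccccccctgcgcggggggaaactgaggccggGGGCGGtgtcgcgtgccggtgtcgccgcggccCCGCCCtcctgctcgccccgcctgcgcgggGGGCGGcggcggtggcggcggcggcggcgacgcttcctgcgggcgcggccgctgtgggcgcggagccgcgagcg
Sdc4 (chr2:164443139-164443438, minus strand): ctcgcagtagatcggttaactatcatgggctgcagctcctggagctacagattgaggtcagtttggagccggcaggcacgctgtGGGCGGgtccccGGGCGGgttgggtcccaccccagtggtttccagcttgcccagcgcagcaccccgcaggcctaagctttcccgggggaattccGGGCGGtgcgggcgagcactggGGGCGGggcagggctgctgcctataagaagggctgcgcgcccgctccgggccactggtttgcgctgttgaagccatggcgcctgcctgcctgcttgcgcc
A GC box was in 7 of 7 member promoters, with 3 in that of Sdc3 and 4 in that of Sdc4, and in 35.7% of all 32851 promoters of the table. The member promoters had a GC content of 54.7% to 77.7%, against a median of 52.7% over the table, and that of Sdc3 was the highest of the 7. The core motif of TCF and LEF factors (CTTTGA, either strand) was in 0 of 7, and in 16.0% of all promoters. An E-box with the letters CACGTG was in 0 of 7, and in 7.15% of all. The letters TATAAA (either strand) were found in the promoter of Gpc5 alone of the 7, there on the strand opposite to the gene, and in 13.6% of all. These are matches of letters only.

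None of the other 3 syndecans was called. Sdc1 (probe set 17273948), the syndecan of epithelia and plasma cells, stood at 8.33 and 7.84 at day 7, against 7.51 and 7.29 at day 4. The day 7 values were higher, but they lay 0.485 log2 apart, and the difference of 0.69 (SE 0.196) had an adjusted p = 0.0745 (0.0439, and so called higher, with the arrays centred on their medians). A second probe set of Sdc1 (17547680) read 6.38 and 6.14 at day 7 and 6.19 and 6.15 at day 4, a difference of 0.09, so the probe sets of this gene disagree. Sdc2 (probe set 17310872), the syndecan of mesenchyme and of dendritic spines, had 8.66 and 8.57 at day 7, against 9.04 and 9.01 at day 4. Its replicates lay close together and its days did not overlap, with the lower values at day 7 (log2 difference -0.41, SE 0.138, adjusted p = 0.121). Sdc4 (probe set 17394175), a syndecan of focal adhesions, had 9.05 and 9.49 at day 7, against 9.67 and 9.71 at day 4. The log2 difference was -0.42 (SE 0.181, adjusted p = 0.226), and the value of day 7 replicate 2 lay 0.175 below the lower day 4 value.

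Ratios within each array show how unequally these paralogues moved. The log2 ratio of Sdc3 to Sdc4 was -0.50 and -1.13 at day 7, against -2.93 and -2.83 at day 4, a shift of 2.07 in favour of Sdc3. The log2 ratio of Sdc2 to Sdc3 was 0.12 and 0.20 at day 7, against 2.31 and 2.14 at day 4, a shift of -2.06. The ratio of Sdc2 to Sdc4 overlapped between days, at -0.38 and -0.93 at day 7, against -0.62 and -0.70 at day 4. These shifts restate the log2 differences given above and are no separate evidence, and no test of them was run.

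Gpc6 (probe set 17302656) was the glypican that rose. Human GPC6 is mutated in omodysplasia, a skeletal disorder, and in the mouse brain astrocytes secrete glypicans 4 and 6, which promote synapses. Its log2 signal was 9.93 and 10.18 at day 7, against 8.46 and 8.72 at day 4. The days were 1.21 apart at their closest, with 0.246 and 0.258 between replicates. Gpc6 was 2.76-fold higher at day 7 (log2 difference 1.46, SE 0.165, adjusted p = 0.00219, 2.52-fold to 3.02-fold with any 1 array left out).

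Gpc1 and Gpc2 were higher on both day 7 arrays without passing the test. Gpc1 (probe set 17215820), a glypican of brain that binds Slit proteins, had 10.16 and 9.80 at day 7, against 9.20 and 9.52 at day 4 (a log2 difference of 0.62, SE 0.186, adjusted p = 0.0879). Its second probe set (17548970) overlapped between days, with 6.87 and 6.88 at day 7 and 6.51 and 6.97 at day 4. Gpc2 (probe set 17454310), known as cerebroglycan and made by developing neurons, had 8.48 and 8.55 at day 7, against 7.93 and 8.09 at day 4. Its log2 difference was 0.51 (SE 0.144, adjusted p = 0.0743), and a probe set shared with the gene Gal3st4 differed by 0.55. Gpc1, Gpc2 and Sdc1 were called higher, to make 5 members of 9, among genes above the median level (adjusted p = 0.0453, 0.0308 and 0.0391). They were also called with an intensity trend in the variance prior (adjusted p = 0.0266, 0.0468 and 0.0434). These fits called 1530 of 11090 and 1725 of 22180 genes higher, against 1364 of 22180. With the probe sets of each gene averaged, Gpc1 and Sdc1 were not called (log2 differences 0.38 and 0.39, adjusted p = 0.264 and 0.227). Gpc2 has no second probe set of its own, so averaging could not change its log2 difference of 0.51 (adjusted p = 0.0727 in that fit). Leaving out any 1 array gave 0.44 to 0.80 for Gpc1, 0.42 to 0.59 for Gpc2 and 0.45 to 0.93 for Sdc1.

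For Gpc3, Gpc4 and Gpc5 the days overlapped. Gpc3 (probe set 17541681), which binds Hedgehog proteins and whose loss causes Simpson-Golabi-Behmel overgrowth syndrome in humans, had 10.62 and 10.79 at day 7, against 10.48 and 10.67 at day 4. Its log2 difference was 0.13, with a 95% interval from -0.23 to 0.49, so a change as large as that of Gpc6 lies outside the interval. Gpc4 (probe set 17541668), needed for forebrain patterning in Xenopus and for cell movements of the zebrafish gastrula, had 9.60 and 9.10 at day 7, against 8.83 and 9.17 at day 4 (a log2 difference of 0.35, 95% interval -0.15 to 0.84). The adjusted p was 0.707 for Gpc3 and 0.412 for Gpc4, and Gpc4 had the widest gap between day 7 replicates of the members, 0.498. Gpc5 (probe set 17302645), a glypican that raises Hedgehog signalling in human muscle tumour cells, had 5.51 and 5.26 at day 7, against 4.95 and 5.37 at day 4. Its log2 difference was 0.23 (95% interval -0.22 to 0.67, adjusted p = 0.582). The signal of Gpc5 was dim, with 25% of all genes having a mean under 4.60, and background left in dim signal makes differences smaller than the true change.

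**Figure D2:**
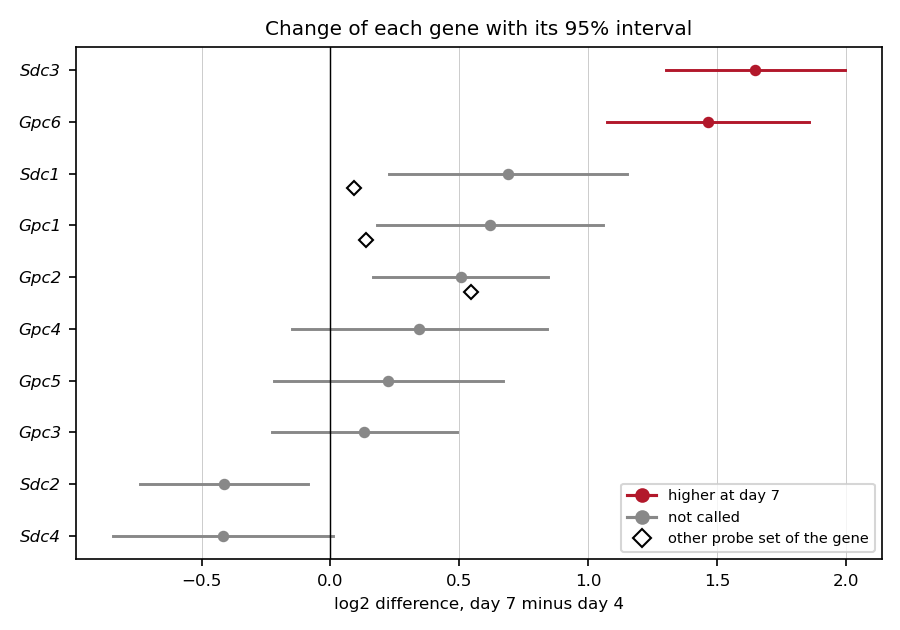
Log2 difference, day 7 minus day 4 (horizontal axis), of each member with limma's 95% interval as a line; filled points are the probe sets used, open diamonds are other probe sets of the same gene (that of Gpc2 also names Gal3st4), and red marks genes called higher. Sdc3 at 1.65 and Gpc6 at 1.46 stand clear of the other 8 members, which lie between -0.42 and 0.69.

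Of the 6 glypican genes 4 lie in pairs on 2 chromosomes. Gpc3 and Gpc4 are next to each other on chromosome X, and the days overlapped for both. Gpc5 and Gpc6 are next to each other on chromosome 14. The log2 ratio of Gpc5 to Gpc6 was -4.42 and -4.92 at day 7, against -3.51 and -3.35 at day 4, a shift of -1.24 between these neighbours. Of all the other genes, apart from predicted models and small RNAs, those with a profile over the 4 arrays most like that of Sdc3 were Celf2, an RNA-binding protein gene, Mapkapk2, a kinase gene, and Samd14. After centring on their own means they differed from Sdc3 by a root mean square of 0.035, 0.040 and 0.049 log2 over 4 arrays, among 18828 genes compared. The likeness of Celf2 rests on the probe set used: its log2 difference was 1.61 there and 0.90 with the probe sets of each gene averaged.

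Cell type markers moved with the days on the same arrays. Their counts stand beside the 6.15% of all genes called higher and the 4.33% called lower. Of 6 neural progenitor markers 6 were higher at day 7, with a summed linear signal of 7536 and 7208 at day 7, against 2063 and 1627 at day 4. Of 6 epiblast markers 5 were lower, with 2911 and 3160 at day 7, against 14803 and 13046 at day 4. Of 6 neural crest markers 3 were higher and 1 lower (1119 and 1069 at day 7, against 500.02 and 506 at day 4), and of 6 epithelial markers the genes Cdh1 and Epcam were lower. Of the markers of the labelled retinal fate 2 of 5 measured genes were higher, among them Rax itself, with 7.62 and 8.37 at day 7, against 6.15 and 6.82 at day 4. Called higher were also 2 of 6 pigment epithelium, 4 of 5 cortical hem and roof plate, 2 of 6 early neuron (1 lower), 1 of 6 endoderm and 2 of 5 mesoderm markers. A signal above 0 does not show that a marker was expressed: Tyr and Rpe65 stood at percentiles 8.96 and 12.2 of level over all genes. The part of cell types in the rises of Sdc3 and Gpc6 was not tested. The day 7 arrays also differed from each other. In replicate 2 as against replicate 1, 5 of 6 pigment epithelium markers were higher (median gap 0.67 log2), as were 4 of 5 eye field (0.65), 6 of 6 endoderm (0.59), 6 of 6 epithelial (0.32), 3 of 5 mesoderm (0.19) and 5 of 6 epiblast markers (0.17). The median gaps of the other 4 marker lists lay between -0.09 and -0.03. These counts have no share over all genes beside them. The median over probe sets was 5.68 on day 7 replicate 1 and higher, at 5.74, on day 7 replicate 2. Sdc4 was 0.448 higher in that replicate, and Gpc4, Sdc1 and Gpc1 were lower in it by 0.498, 0.485 and 0.362; over all genes the median absolute gap was 0.149 and the 95th percentile 0.503. Whether these gaps are linked was not tested.

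Genes that build the heparan sulfate chain rose in part. Of 28 listed genes 26 were measured (not Ndst1 and Hs3st3a1), of which 6 (23.1%) were called higher, 0 lower and 20 were not called. The median log2 difference of the 26 was 0.39, and 6.15% of all genes were called higher and 4.33% lower. At an unadjusted p under 0.05, 13 of the 26 were higher and 1 was lower, beside the 12.6% and 10.5% of all genes. The 1 towards lower was Hs3st5 (log2 difference -0.86, limma adjusted p = 0.0749). At the start of the chain, Xylt1, a xylosyltransferase that adds the first sugar to the core protein, had 9.25 and 9.18 at day 7, against 7.34 and 7.49 at day 4. It was 3.47-fold higher (log2 difference 1.80, SE 0.142, adjusted p = 0.000579). Of the polymerising enzymes, Ext1, a subunit of the polymerase, was 1.99-fold higher (adjusted p = 0.0079), and Extl3, which starts the repeating chain, 1.53-fold (adjusted p = 0.0471). Of the sulfating enzymes, the N-deacetylase and N-sulfotransferase gene Ndst3 was 2.06-fold higher (adjusted p = 0.0281). The 3-O-sulfotransferase gene Hs3st1 was 1.95-fold higher (adjusted p = 0.0149) and the 6-O-sulfotransferase gene Hs6st2 1.89-fold (adjusted p = 0.0398). Ndst3 was as dim as Gpc5, with 6.05 and 5.42 at day 7, against 4.58 and 4.81 at day 4.

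Of these 6 calls that of Xylt1 was kept in each fit with 1 array left out. The count of the 26 called higher fell to 1 when day 7 replicate 1 was left out, to 2 when day 7 replicate 2 was, and to 4 when day 4 replicate 1 was, in fits that called 887, 994 and 1964 genes in all in place of 2324. The adjusted p of Ext1 was 0.0811 and 0.0545 without day 7 replicate 1 or 2. For Extl3 it was 0.276 and 0.183 without day 7 replicate 1 or 2, and 0.139 with day 4 replicate 1 left out. Ndst3 had 0.156 with day 7 replicate 1 left out and 0.0793 with day 4 replicate 1 left out. Hs3st1 had 0.0647 and 0.122 without day 7 replicate 1 or 2. Hs6st2 had 0.247 and 0.0555 without day 7 replicate 1 or 2, and 0.0981 without day 4 replicate 2.

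Among 13 genes whose products edit the chain or release the core protein, 3 were higher, 0 lower and 10 were not called. The median log2 difference was 0.11, and 1 gene had an unadjusted p under 0.05 towards lower. The shares over all genes were 6.15% called higher and 4.33% lower. Adam10, a membrane protease that sheds many surface proteins, syndecans among them, had 9.87 and 9.95 at day 7, against 8.63 and 8.48 at day 4 (2.56-fold, adjusted p = 0.00165). Gdpd5, the gene of an enzyme that cuts the lipid anchor of glypican 6 in human neuroblastoma cells, was 1.88-fold higher (adjusted p = 0.00868), and Sulf2, which removes 6-O-sulfate groups outside the cell, 1.77-fold (adjusted p = 0.0137). Without day 7 replicate 1 or 2 the adjusted p of Gdpd5 was 0.0804 and 0.074, and that of Sulf2 0.121 and 0.0883, which left Adam10 as the 1 call. Sulf1, the related sulfatase gene, had 9.99 and 10.37 at day 7, against 10.24 and 9.70 at day 4 (adjusted p = 0.685). Notum, a Wnt-inactivating esterase gene first described in Drosophila as acting on glypicans, had 5.75 and 5.86 at day 7, against 5.74 and 5.78 at day 4 (adjusted p = 0.917).

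Of 5 genes of proteins that bind syndecan tails, Cask was called higher and 4 were not called. Beside the counts of this paragraph, 6.15% of all genes were called higher and 4.33% lower. Cask, a scaffold kinase gene, had 9.74 and 9.75 at day 7, against 8.30 and 8.33 at day 4 (2.69-fold, log2 difference 1.43, SE 0.136, adjusted p = 0.00115). Sdcbp, the gene of syntenin, had 8.58 and 8.56 at day 7, against 8.32 and 7.99 at day 4 (a log2 difference of 0.41, adjusted p = 0.179). Of 10 other genes of proteins that can carry such chains, 2 were higher, 1 lower and 7 not called. The semaphorin receptor gene Nrp1 was 2.61-fold higher (adjusted p = 0.0041). The testican genes, secreted proteoglycans of the nervous system, split, with Spock1 2.19-fold higher (adjusted p = 0.0241) and Spock2 lower. Spock2 had 6.92 and 7.07 at day 7, against 8.43 and 8.55 at day 4 (a log2 difference of -1.50, SE 0.145, adjusted p = 0.00119). The adjusted p of Spock1 became 0.0679 and 0.163 without day 7 replicate 1 or 2.

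**Figure D3:**
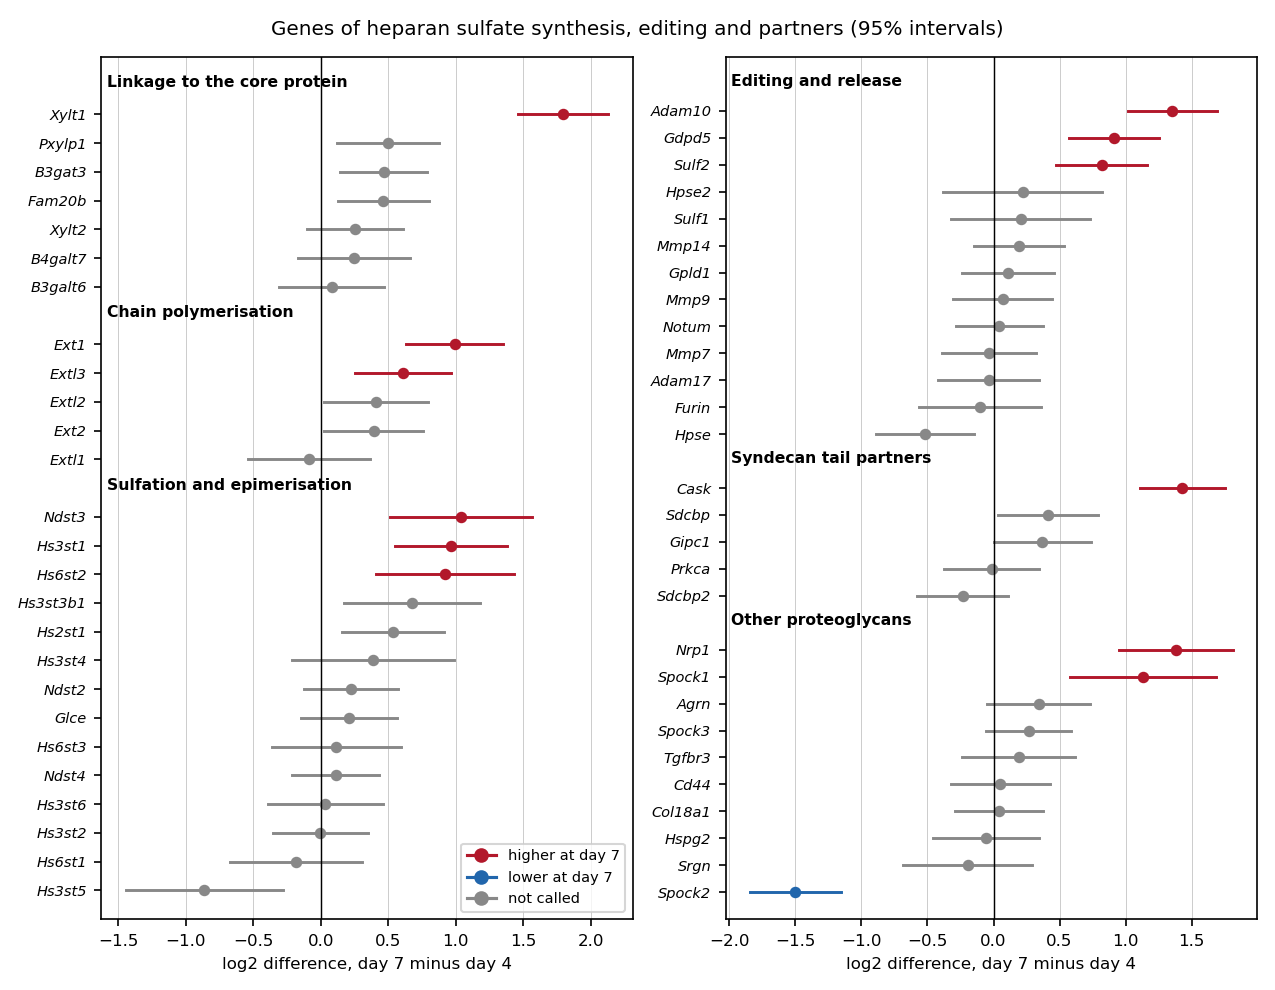
Log2 difference, day 7 minus day 4 (horizontal axes), of genes that build, edit or release heparan sulfate, bind syndecan tails or carry such chains, with limma's 95% intervals as lines; red is called higher, blue lower, grey not called. Xylt1 at 1.80, Cask at 1.43 and Adam10 at 1.35 are among the highest, and Spock2 at -1.50 is the called fall.

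Several protein partners of the 2 families had larger differences than any member. Over all genes 6.15% were called higher and 4.33% lower in the main fit. Fits without 1 of the day 7 arrays called fewer genes in all. In a list of 20 Slit, pleiotrophin, phosphatase and matrix genes, 8 were higher, 1 lower and 11 not called (5 higher and 0 lower without day 7 replicate 1 and likewise without day 7 replicate 2). Slit2, a guidance ligand that binds glypican 1, had 10.17 and 10.44 at day 7, against 6.43 and 6.36 at day 4, which is 15.0-fold higher (adjusted p = 5.60e-05). Its receptor gene Robo2 was 11.9-fold higher (adjusted p = 9.12e-05). Ptn, the pleiotrophin gene, had 10.33 and 10.06 at day 7, against 7.29 and 7.37 at day 4. Ptn was thus 7.32-fold higher (adjusted p = 0.000141) where the gene of its receptor, Sdc3, was 3.14-fold higher. The laminin gene Lama5 was the fall (log2 difference -0.90, adjusted p = 0.0253), with 0.185 and 0.0554 without day 7 replicate 1 or 2 and 0.0639 without day 4 replicate 2.

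Of 14 FGF ligand and receptor genes 1 (7.14%) was higher, 2 were lower and 11 not called. The share called higher was near the 6.15% of all genes, where 4.33% were called lower. The receptor gene Fgfr3 was 2.27-fold higher (adjusted p = 0.0147, and 0.0781 without day 7 replicate 1). Fgf5, a ligand of the epiblast, had 5.74 and 6.13 at day 7, against 10.66 and 10.62 at day 4 (adjusted p = 3.96e-05), and Fgf4 was lower by a log2 difference of -1.13 (adjusted p = 0.00624, and 0.065 without day 7 replicate 1). Of 15 measured Hedgehog pathway genes 7 were higher, 0 lower and 8 not called (1 unadjusted p under 0.05 towards lower, and fewer higher with either day 7 array left out). They were led by Scube1, of a family of secreted proteins that includes a Hedgehog release factor (17.3-fold), and the Hedgehog co-receptor genes Boc (6.33-fold) and Gas1 (3.93-fold). Of 15 BMP pathway genes 5 were higher, 0 lower and 10 not called (0 lower also at an unadjusted p under 0.05, and 3 higher without day 7 replicate 1 and likewise without day 7 replicate 2). They were the ligand genes Bmp5 (8.79-fold), Bmp7 (4.9-fold) and Bmp6 (4.24-fold), and the target gene Id3 and the receptor gene Bmpr2, named after their values were seen. Median log2 differences were 0.35 for the Slit and matrix list, 0.0027 for FGF, 0.58 for Hedgehog and 0.65 for BMP genes.

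**Figure D4:**
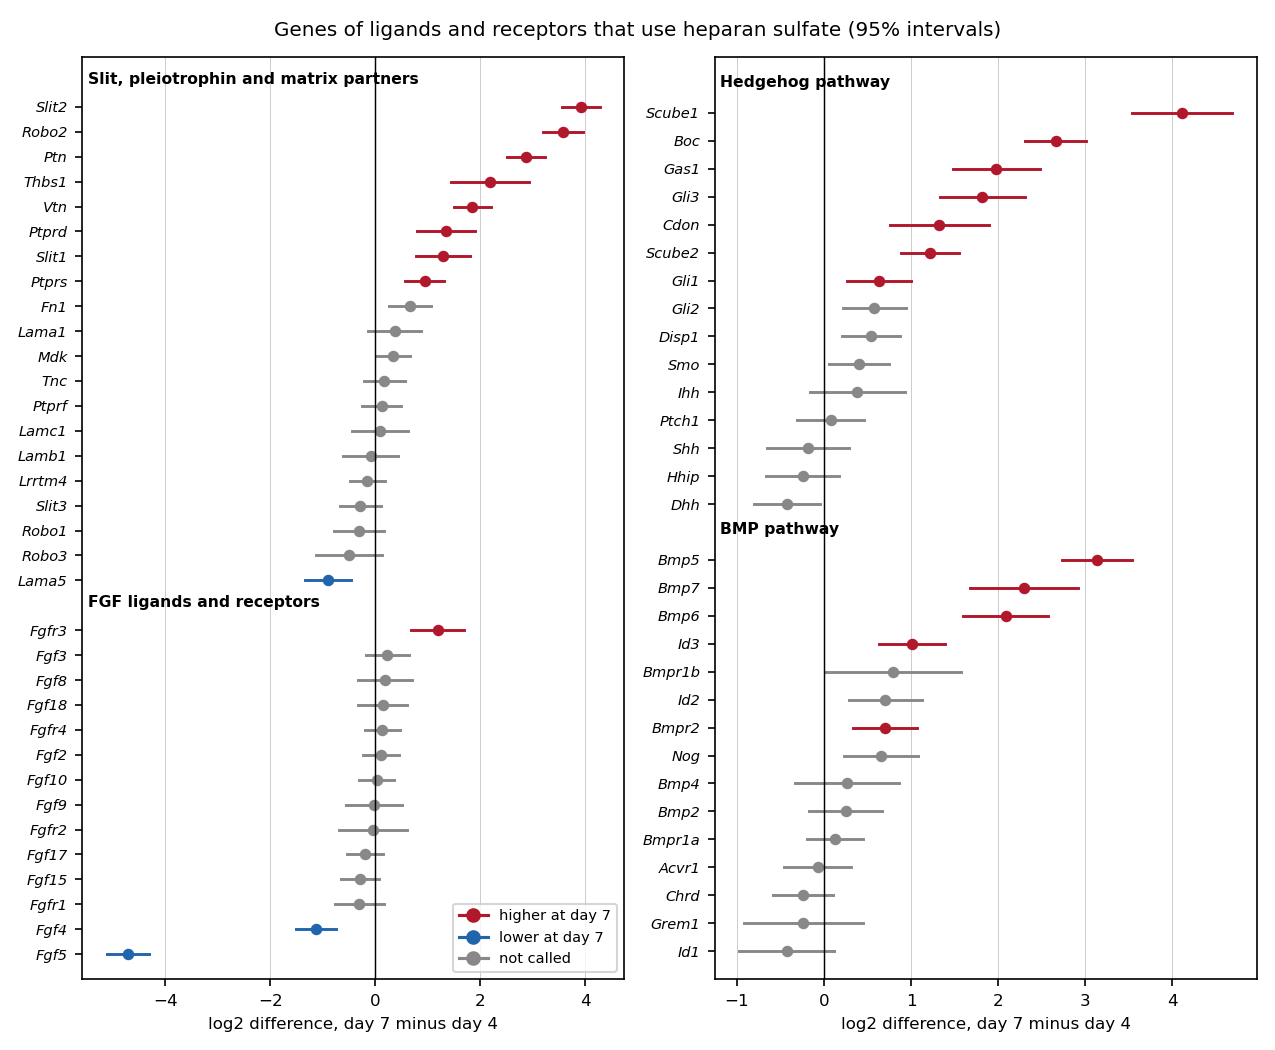
Log2 difference, day 7 minus day 4 (horizontal axes), of genes of ligands, receptors and matrix proteins that bind heparan sulfate or belong to pathways it serves, with limma's 95% intervals as lines; red is called higher, blue lower, grey not called. Slit2 at 3.91, Robo2 at 3.58 and Ptn at 2.87 lead the left panel and Fgf5 at -4.71 ends it, while Scube1 at 4.11 and Bmp5 at 3.14 lead the lists on the right.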

How the data were processed

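Total RNA of 4 samples was hybridised to 1 array each, per the labels' protocols as biotin-labelled sense cDNA on an Affymetrix gene array. The deposited values are log2 signals of probe sets, which the authors computed by RMA (Partek 6.5, per the submitters' processing notes); its settings are not given in the sources used here. RMA scaling can hide a shift common to most genes; array medians were close but not equal, at 5.68 to 5.77 log2. Arrays correlated with r of 0.986 to 0.991 within days and 0.972 to 0.978 between days over probe sets.

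The platform annotation gives a lone gene for 23521 of 41345 probe sets, which made 22180 genes. RefSeq (GRCm38.p6) gave neighbouring genes, and promoters came from a separate promoter set on the same build. Day 7 minus day 4 was fitted over all genes with limma 3.58.1 in R 4.3.3 (lmFit and eBayes without trend, 2 residual degrees of freedom), two-sided, with Benjamini-Hochberg adjustment over all genes and calls at an adjusted p under 0.05. The fit was also run on simulated arrays with independent errors drawn from its own variance prior. Such a run checks the code and cannot show whether the replicates here were independent. Precision is limited by the number of arrays. The members and lists were chosen with earlier results of these data known. The text names all members, Notum, Sulf1, Sulf2 and Sdcbp, and from each list at most 3 called genes that rose most and at most 3 that fell most, or, with none called, the gene that differed most. The 3 genes most like Sdc3 were added, and other genes in the text were chosen after their values were seen. Settings varied were a block for the replicate number, each array left out, quantile normalization, median centring, a minimum level at the 25th or the 50th percentile, an intensity trend with and without robust estimation, no variance prior, and averaging over the probe sets of a gene.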

Additional observations from a re-analysis of the deposited data

How the results depend on the processing

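The calls of Sdc3 and Gpc6 and the count of 0 members lower were kept in 12 of 12 alternatives that use a variance prior, with adjusted p-values of 7.11e-05 to 0.0144 for Sdc3 and 6.77e-05 to 0.0263 for Gpc6. Called higher in all were 1364 of 22180 genes in the main fit and 1530 of 11090 above the median level. They were 1725 of 22180 with an intensity trend, and 1770 with that trend and robust estimation. The count of members called higher was 5 in place of 2 in these alternatives (of 9 members above the median level), and 0 without a variance prior. It was 2 with any 1 array left out. Of the heparan sulfate genes 0 were called without a variance prior, and leaving out 1 array gave 1 to 6 higher and 0 to 1 lower. One was lower with the replicate number as a block, with median centring and with both intensity trends. With the replicate block (1606 genes called higher in all), and likewise with median centring (1718), 3 members and 7 heparan sulfate genes were higher. With both intensity trends 8 heparan sulfate genes were higher. The third member was Sdc1 (adjusted p = 0.0289 with the block and 0.0439 with centring). The 2 numbers do not establish a pairing: deviations of same-numbered arrays from their day means correlated with r = 0.186 over genes. Among the 42 genes named by rule, which alone were followed one by one, the difference turned sign with an array left out for 2 that were not called, Sulf1 (-0.0666 to 0.477) and Notum (-0.0154 to 0.102). Genes called in all were 2324, and 887 and 994 without day 7 replicate 1 or 2 and 3 without a variance prior. Leaving out an array leaves 1 sample for its day, assumed to vary like the other day. The cause of these changes was not tested.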

Other observations

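Neighbours and overlapping genes of the members gave further values. The pigment gene Dct lies next to Gpc6 on chromosome 14 and had 6.69 and 8.66 at day 7, against 4.88 and 5.07 at day 4 (a log2 difference of 2.70, adjusted p = 0.0217), so its day 7 arrays lay much farther apart than those of Gpc6. On the far side of Gpc5, the nearest measured protein-coding gene, Slitrk5, lies 3409 kb away and had a log2 difference of 0.70 (adjusted p = 0.0445). The genes on either side of Sdc3 were not called, Nkain1 (adjusted p = 0.0554) with a log2 difference of 0.53 and Laptm5 (adjusted p = 0.997) with -0.0040.

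Some members overlap other genes in the annotation. Stag3, a cohesin gene that overlaps Gpc2, had a log2 difference of -0.32 (adjusted p = 0.388), opposite in sign to the 0.51 of Gpc2. Mir717, a microRNA gene within Gpc3, had one of -0.35 (adjusted p = 0.379), and Mir149, within Gpc1, one of -0.28 (adjusted p = 0.506). Ankmy1, which also overlaps Gpc1, had one of -0.25 (adjusted p = 0.486). None of these 4 was called, and neither were Gpc1, Gpc2 and Gpc3, whose differences were positive.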
